A study of Mus musculus with 12 samples.

Results

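The effect of radiation in mouse tumors whose TGF-beta was being neutralized was examined by setting 3 irradiated 1D11_radiation tumors against 3 unirradiated 1D11 tumors, across all genes. These are 6 of the 12 arrays of the series, chosen by their labels alone. 1D11_radiation tumors received the antibody 1D11, which binds and neutralizes TGF-beta, together with radiation. 1D11 tumors received the same antibody and no radiation. The other 6 tumors received the isotype control antibody 13C4, 3 with radiation (the radiation group) and 3 without (the control group). All tumors grew under the skin of female C57BL/6 mice, aged 6 to 8 weeks, from LLC cells, an established mouse Lewis lung carcinoma line, and none carries an engineered allele in the labels. Treatment began at a tumor volume of 60 to 80 mm3, and tumors were removed on day 19 after injection. The sample characteristics give the radiation as 5 fractions of 6 Gy and the sample descriptions as 2 Gy, so the dose is not settled. The title and description fields call the samples cells, whereas the source names call them tumors. The RNA is that of whole tumors of 1 cell line at 1 site, host cells included. The labels do not say that replicates came from separate mice, so p-values measure the spread between these samples.

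TGF-beta is a secreted cytokine, stored in a latent form in the matrix, that signals through paired receptor chains to SMAD proteins and induces matrix genes while restraining lymphocytes and inflammatory cells. Ionizing radiation breaks DNA, activates the p53 program, damages vessels, and is known to activate latent TGF-beta. Under the antibody the ligand is bound outside the cell, so the mRNA of the ligands and receptors need not change with it.

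Gene expression was read on 12 Affymetrix arrays, 1 per tumor, as log2 intensity, and 12735 genes were tested. Array medians of the deposited intensities lay between 62.3 and 66.1. Precision is limited by having 3 arrays in each group. On the first 2 principal components, which held 27.7% and 18.1% of the variance, 1D11_radiation tumors lay at 11.9 to 13.8 on the first and 1D11 tumors at -9.61 to -1.87. The tumor cell label was checked with 10 genes. The mesenchymal filament gene Vim was at 14.37 to 14.43 in 1D11_radiation tumors and 14.37 to 14.39 in 1D11 tumors, the epithelial keratin gene Krt8 at 12.11 to 12.64 and 11.70 to 12.35, and the proliferation marker Mki67 at 11.38 to 11.65 and 11.48 to 11.73. Of 5 genes of epithelial and lung identity, Cdh1, Nkx2-1, Sftpc and Scgb1a1 were too dim to be tested, and only Epcam passed the intensity filter. Control replicate 1 and radiation replicate 3 had the highest skeletal muscle scores, 1.27 and 1.94, and array weights of 0.297 and 0.359 in limma; neither belongs to the groups compared, but both enter the shared estimate of spread.

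With radiation under 1D11, 6 genes fell and 4 rose (limma at a threshold of 0.05 on p-values adjusted across the 12735 genes by Benjamini-Hochberg). These 10 calls are 0.0785% of the genes tested, with 0.0314% higher and 0.0471% lower. Those that fell were the apelin receptor gene Aplnr, the zinc-finger transcription factor gene Osr2, the mast cell chymase gene Mcpt4, the membrane protein gene Prrg2, the gene Trio and the guidance cue gene Ntn1. Those that rose were Srgap3, which encodes a protein of Slit-Robo signaling, the membrane protease gene Adam8, Abcc1, a pump that exports glutathione conjugates and drugs, and Cystm1, a small membrane protein.

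Aplnr, a receptor of endothelial cells, had log2 intensities of 7.31, 7.65 and 7.52 in the 1D11_radiation tumors, against 9.08, 9.23 and 9.15 in the 1D11 tumors. The irradiated tumors lay well below every unirradiated one, and the fold was 0.316 (log2 change -1.66 ± 0.12 SE, n = 3 tumors per group, limma adjusted p = 0.000322). A second, dimmer Aplnr probe set changed by -0.39. Osr2, a regulator of mesenchymal development, had 5.72, 6.05 and 5.32 in 1D11_radiation tumors, against 7.67, 7.21 and 7.37 in 1D11 tumors. These groups did not overlap either, at a fold of 0.304 (-1.72 ± 0.20, adjusted p = 0.0159), although its other probe set, at a mean of 4.01, changed by -0.07. In whole-tumor RNA, fewer cells of a type and less RNA per cell cannot be told apart.

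Mcpt4 had 6.18, 6.93 and 6.98 in 1D11_radiation tumors, against 8.19, 8.12 and 8.54 in 1D11 tumors (-1.59 ± 0.24, adjusted p = 0.0499 in limma). The 3 1D11 tumors were also above the 6 tumors given 13C4, which had 6.93 to 7.31 with radiation and 6.50 to 7.23 without. Ntn1 had 11.54, 11.55 and 11.60 in 1D11_radiation tumors, against 12.06, 12.13 and 12.05 in 1D11 tumors (-0.52 ± 0.07, adjusted p = 0.0363). Prrg2 (-0.65 ± 0.09) and Trio (-0.56 ± 0.08) fell at adjusted p of 0.0363 and 0.0443. The direction for Trio depended on the probe set: its 6 sets ran from -0.56 to 0.33, and the brightest pair, at means of 11.73 and 11.50, were both at -0.56.

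Srgap3 had 8.21, 8.52 and 8.44 in 1D11_radiation tumors, against 7.24, 7.53 and 7.71 in 1D11 tumors (0.90 ± 0.11, adjusted p = 0.0252 in limma). Adam8 had 10.60, 10.60 and 10.49 in 1D11_radiation tumors, against 9.91, 9.83 and 9.96 in 1D11 tumors (0.67 ± 0.09, adjusted p = 0.0363). In every one of the 10 genes the 3 irradiated tumors lay on one side of the 3 unirradiated tumors. Calling genes by p favors this, and it held for 26.1% of all genes. Abcc1 rose by 0.59 ± 0.09 (adjusted p = 0.0407) and Cystm1 by 0.44 ± 0.06 (adjusted p = 0.0430), although a dimmer Cystm1 probe set was at 0.02.

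Without either 1D11 replicate 1 or replicate 3, or without 1D11_radiation replicate 1, the calls left among these 10 genes were Aplnr and Srgap3. Without 1D11 replicate 2 they were Aplnr and Osr2, without 1D11_radiation replicate 3 Aplnr, and without 1D11_radiation replicate 2 Aplnr, Osr2, Srgap3 and Cystm1. Aplnr thus kept its call whichever tumor was left out, at log2 changes of -1.74 to -1.57 and adjusted p up to 0.00435 (limma). Osr2 ran from -1.90 to -1.53 with adjusted p up to 0.0602, and the other 8 kept their direction with adjusted p up to 0.156. Of the tumors given 13C4, leaving out radiation replicate 2 ended 7 of the calls, control replicate 3 those of Abcc1, Cystm1, Mcpt4 and Trio, and radiation replicate 1 those of Cystm1 and Mcpt4. A covariate for keratinocyte signal ended every call but that of Aplnr, as given with the skin markers.

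The number of genes called depended on which arrays informed the spread. With the 6 arrays of the comparison alone 119 genes were called, 51 higher and 68 lower (0.934%, with 0.4% higher and 0.534% lower), and without control replicate 1 the count was 227 (1.78%; 94 higher and 133 lower, 0.738% and 1.04%). The 10 genes were in both sets, which shared 85 genes. At an unadjusted p under 0.05 there were 1979 genes (15.5%), 664 higher and 1315 lower (5.21% and 10.3%). In 1221 genes all 3 irradiated tumors lay above the unirradiated ones (9.59%) and in 2105 genes below (16.5%). The median change of all genes was -0.03, and 5396 of 12735 (42.4%) were higher. By size, 36 genes were more than 2-fold higher and 36 more than 2-fold lower, and 3 of these 72 were among the calls.

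**Figure D1:**
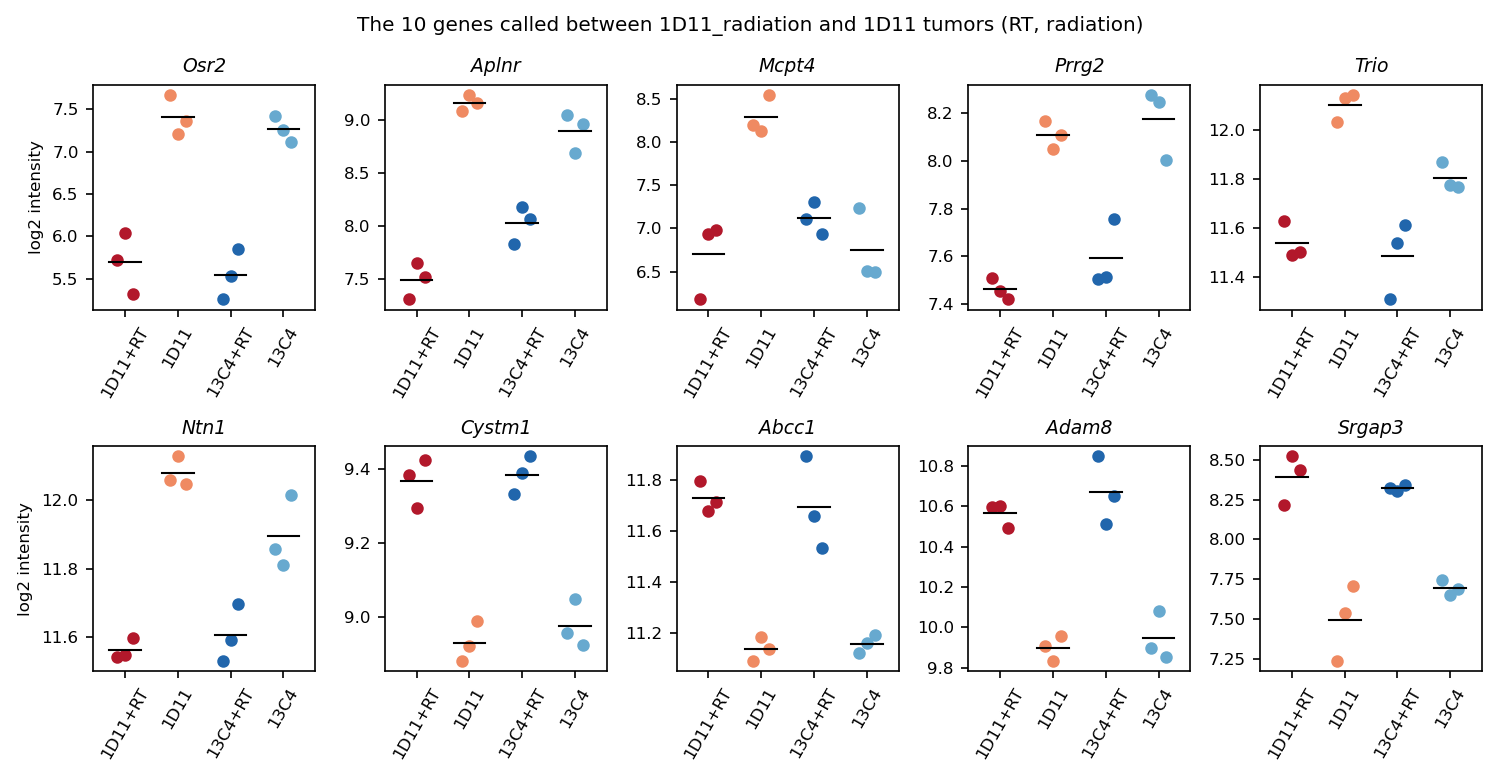
Log2 intensity (vertical axis) of the 10 genes called between 1D11_radiation (1D11+RT) and 1D11 tumors, with the radiation (13C4+RT) and control (13C4) tumors beside them; each point is a tumor and each bar a group mean, n = 3. In each panel the 3 irradiated and 3 unirradiated 1D11 tumors do not overlap, as in 26.1% of all genes. Aplnr lies at 7.31 to 7.65 in the irradiated tumors and 9.08 to 9.23 in the unirradiated ones, and Mcpt4 is highest in the 3 1D11 tumors.

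The next 10 genes by unadjusted p in each direction did not pass (adjusted p = 0.0547 to 0.0611, limma). Those higher were led in size by Cp, which encodes the copper-carrying ferroxidase ceruloplasmin, at 10.62, 11.08 and 10.37 in 1D11_radiation tumors, against 9.02, 8.35 and 8.56 in 1D11 tumors (2.05 ± 0.36, adjusted p = 0.0568). The groups were far apart for Cp, and with the 6 arrays alone its adjusted p was 0.0269. Csf2, the gene of the growth factor GM-CSF, had 6.22, 5.88 and 5.78 in 1D11_radiation tumors, against 5.15, 5.28 and 5.12 in 1D11 tumors (0.78 ± 0.12, adjusted p = 0.0558). The others higher were Cyp2f2 (1.61 ± 0.30), a cytochrome P450 gene, Ovgp1 (1.07 ± 0.19), Pbp2 (0.62 ± 0.11), the stress-response gene Gadd45g (0.57 ± 0.10), Sipa1l2 (0.51 ± 0.08), Fam162a (0.46 ± 0.08), the LIM-domain gene Fhl2 (0.46 ± 0.09) and the inositol phosphate kinase gene Itpk1 (0.43 ± 0.07, with another probe set at -0.05).

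Those lower included 4 genes of vessel, stroma and mast cells (Cma1, Pdgfra, Tek and Rgs5) and the immunoproteasome subunit gene Psmb10 (-0.56 ± 0.09, adjusted p = 0.0568, limma). Psmb10 had 9.88, 9.90 and 10.01 in 1D11_radiation tumors, against 10.43, 10.54 and 10.49 in 1D11 tumors. The remaining 5 were the nuclear envelope gene Tor1aip1 (-0.56 ± 0.09), the zinc-finger gene Zfp438 (-0.56 ± 0.09), the methyltransferase gene Etfbkmt (-0.50 ± 0.08), Fam122b (-0.44 ± 0.07) and Fryl (-0.38 ± 0.06).

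Among vessel genes, Aplnr was lower and its ligand gene Apln was higher in irradiated tumors, while endothelial markers went both ways. Apln had 8.69, 8.66 and 8.99 in 1D11_radiation tumors, against 7.99, 8.00 and 8.11 in 1D11 tumors (0.75 ± 0.29, adjusted p = 0.248, and 0.0348 with the 6 arrays alone, limma). These groups did not overlap. Tek, the angiopoietin receptor gene, had 5.01, 5.28 and 5.32 in 1D11_radiation tumors, against 6.22, 5.82 and 5.80 in 1D11 tumors (-0.74 ± 0.13, adjusted p = 0.0568). The VEGF receptor gene Flt1 was at 0.36 ± 0.13 (adjusted p = 0.214). Of 25 endothelial genes tested, 10 were higher, 5 of them with no overlap of the groups (9.59% of all genes). The other 15 were lower, 4 with no overlap (16.5% of all genes). Aplnr alone was called (0.0471% of all genes were called lower). At an unadjusted p under 0.05 in limma, 3 were higher (5.21% of all genes) and 3 lower (10.3% of all genes). The highest change of the list was that of Esm1, a gene of sprouting endothelium named after its values were seen, at 1.17 ± 0.72 (adjusted p = 0.465) with overlapping groups. Their median change was -0.12, against -0.03 over all genes, and it changed sign under 2 of 27 alternatives.

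Pericyte and smooth muscle genes, which mark the outer coat of vessels, had 9 of 11 members lower and a median change of -0.18. None was called in limma (4 lower at an unadjusted p under 0.05, 10.3% of all genes). Rgs5, a pericyte regulator of G-protein signaling, had 7.71, 8.39 and 7.56 in 1D11_radiation tumors, against 9.20, 8.97 and 9.07 in 1D11 tumors (-1.19 ± 0.20, adjusted p = 0.0568). Irradiated tumors lay below all unirradiated ones for Rgs5, but not for the pericyte receptor gene Pdgfrb (-0.88 ± 0.32, adjusted p = 0.225) or the channel subunit gene Abcc9 (-0.69 ± 0.29, adjusted p = 0.288), where 1D11_radiation replicate 2 overlapped the 1D11 tumors. Notch3 was at -0.39 ± 0.14.

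Fibroblast genes had 21 of 23 members lower (median -0.32), with Osr2 called (0.0471% of all genes were called lower). At an unadjusted p under 0.05 in limma, 5 were lower (10.3% of all genes), and 4 were lower with no overlap of the groups (16.5% of all genes). Pdgfra, the growth factor receptor gene of fibroblasts, had 10.54, 10.49 and 10.32 in 1D11_radiation tumors, against 11.35, 11.34 and 11.22 in 1D11 tumors (-0.85 ± 0.14, adjusted p = 0.0568, limma). The related factor gene Osr1 (-0.58 ± 0.18) and the proteoglycan gene Aspn (-1.32 ± 0.47) were also lower. Fibroblast scores, averages over the members of log2 values centred gene by gene, were -0.39, 0.36 and -0.54 in 1D11_radiation tumors, against 0.17, 0.17 and 0.30 in 1D11 tumors, so that replicate 2 of the irradiated tumors stood above the 1D11 range and the others below it. The list median was -0.64 without that tumor and -0.16 without 1D11_radiation replicate 3. Collagen and matrix genes had 23 of 29 members lower, a median change of -0.24 and no call (7 lower at an unadjusted p under 0.05, 10.3% of all genes). Among them the collagen VI chain genes Col6a3 (-0.82 ± 0.25) and Col6a2 (-0.85 ± 0.34), the elastin gene Eln (-0.26 ± 0.10) and Col15a1 (-0.29 ± 0.12) had the smallest p. The matrix median was -0.33 without 1D11_radiation replicate 2 and -0.08 without replicate 3.

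Mast cells store proteases and histamine and carry the high-affinity IgE receptor. Of 15 mast cell genes on the arrays, 9 passed the intensity filter. That filter uses the mean over all arrays, so a gene high only in 1D11 tumors could pass it. This favors lower values with radiation among the genes tested. Of the 9 tested, 7 were lower in irradiated tumors, 6 with no overlap (16.5% of all genes), and the median was -0.53. The other two were higher, of which Mcpt8, a protease gene of basophils named after its values were seen, had no overlap (9.59% of all genes) at 0.62 ± 0.25 (adjusted p = 0.259, limma). After Mcpt4, the closest to the threshold was Cma1, another chymase gene, at 6.98, 7.93 and 7.76 in 1D11_radiation tumors, against 9.43, 9.23 and 9.36 in 1D11 tumors (-1.78 ± 0.29, adjusted p = 0.0568, limma). The carboxypeptidase gene Cpa3 had 7.33, 8.42 and 8.32 in 1D11_radiation tumors, against 9.94 to 10.07 in 1D11 tumors (-1.98 ± 0.39, adjusted p = 0.0630), and the IgE receptor gene Fcer1a was at -1.76 ± 0.37 (adjusted p = 0.0744). Mcpt4, Cma1 and Cpa3 passed with the 6 arrays alone (adjusted p = 0.0398, 0.0347 and 0.0380). Mast cell scores were -0.47, -0.03 and -0.13 in 1D11_radiation tumors, against 0.76, 0.50 and 0.58 in 1D11 tumors, and -0.40 to 0.00 in the 6 tumors given 13C4. The unirradiated 1D11 tumors thus stood above the other 9.

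Markers of tissue next to the graft moved with the same contrast. Of 19 keratinocyte genes on the arrays, which mark overlying skin, 6 passed the intensity filter. That filter uses the mean over all arrays, so a gene high only in 1D11 tumors could pass it. This favors lower values with radiation among the genes tested, so their direction and median may be partly set by the filter. The 6 tested were all lower in irradiated tumors, with a median of -1.11 and none called in limma. At an unadjusted p under 0.05, 5 were lower (10.3% of all genes). Their scores were -0.30, -0.25 and -0.38 in 1D11_radiation tumors, against 0.61, -0.30 and 2.17 in 1D11 tumors. The basal keratin gene Krt14 had 5.44, 5.02 and 5.10 in 1D11_radiation tumors, against 7.35, 5.21 and 10.63 in 1D11 tumors, so 1D11 replicates 1 and 3 were high and replicate 2 was not. Krt10 (-1.24 ± 0.28), Lor (-0.73 ± 0.23) and Krt5 (-1.13 ± 0.50) were also lower in irradiated tumors. The keratinocyte median was -0.47 without 1D11 replicate 3. With the keratinocyte score as a covariate in limma, 9 of the 10 calls were lost (adjusted p = 0.0919 to 0.196) and Aplnr remained, at -1.69 (adjusted p = 0.0121). Among those lost, Osr2 was at -1.68 (adjusted p = 0.0921), Srgap3 at 1.00 (adjusted p = 0.0919) and Mcpt4 at -1.42 (adjusted p = 0.196).

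Adipocyte genes had 9 of 11 members lower, a median change of -0.33 and no call. The fat hormone gene Adipoq (-1.76 ± 0.51, adjusted p = 0.142), the fatty acid transporter gene Cd36 (-0.80 ± 0.24), the fatty acid binder gene Fabp4 (-0.90 ± 0.32) and the lipase gene Lipe (-0.33 ± 0.14) had the smallest p in limma. Skeletal muscle genes had 18 of 20 members lower (median -0.73, none called and none at an unadjusted p under 0.05), at scores of -0.84, 0.40 and -1.24 in 1D11_radiation tumors, against -0.29, 0.07 and 0.19 in 1D11 tumors. With the skeletal muscle score as a covariate the 10 genes were called again, while the part of fat tissue was not tested.

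**Figure D2:**
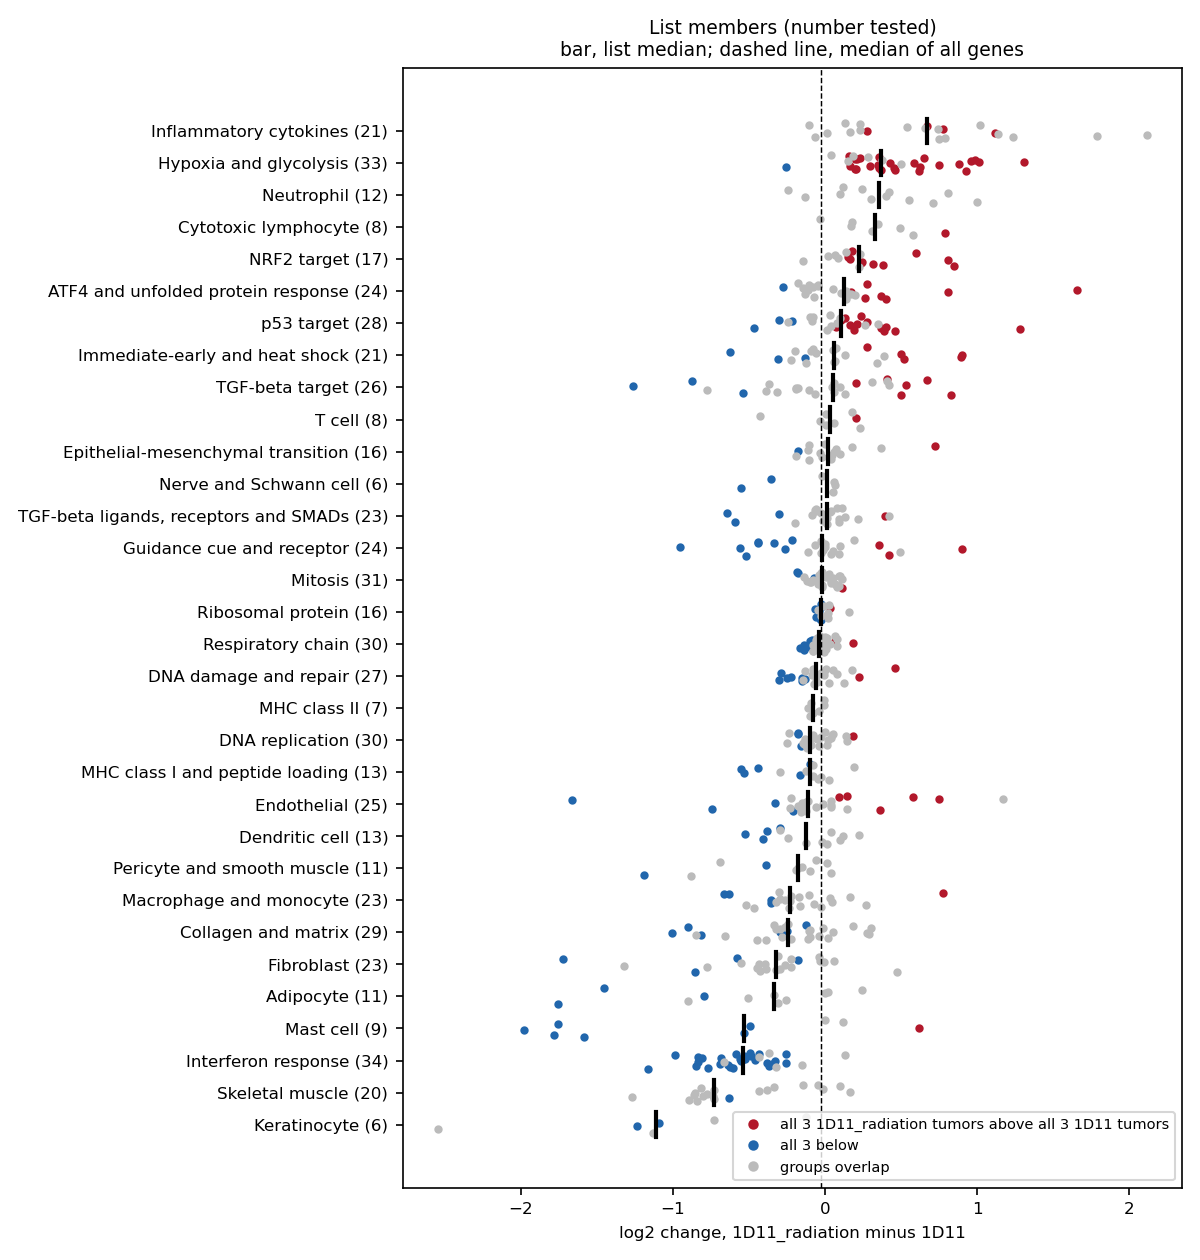
Log2 change, 1D11_radiation minus 1D11 (horizontal axis), of each tested member of the gene lists, 1 row per list; bars mark list medians and the dashed line the median of all genes, -0.03. Hypoxia and glycolysis genes lie to the right (median 0.36) and interferon response genes to the left (median -0.54), mostly with no overlap of the groups. The groups do not overlap in 26.1% of all genes.

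Hypoxia and glycolysis genes had 32 of 33 members higher in irradiated tumors and a median log2 change of 0.36. Cells short of oxygen stabilize the HIF transcription factors, which bind the letters ACGTG or GCGTG and induce glucose uptake, glycolysis and vessel growth factors. No member passed in limma over 12 arrays. In 26 members all irradiated tumors lay above the unirradiated ones (9.59% of all genes did so) and in 1 below. At an unadjusted p under 0.05, 23 were higher (5.21% of all genes) and 1 lower (10.3% of all genes). With the 6 arrays alone 9 were called higher (0.4% of all genes), and none lower. This list, like the others, was chosen with earlier results of these data known, so its counts are no separate result.

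P4ha2, a collagen prolyl hydroxylase gene, had the smallest p of the list, at 9.15, 9.16 and 8.96 in 1D11_radiation tumors, against 7.86, 8.08 and 8.44 in 1D11 tumors (0.96 ± 0.20, adjusted p = 0.0669, limma). The glycolytic kinase gene Pgk1 had 13.78, 13.80 and 13.91 in 1D11_radiation tumors, against 13.47, 13.43 and 13.48 in 1D11 tumors (0.36 ± 0.08, adjusted p = 0.0751). Neither gene's groups overlapped, and the same held for Egln1, the oxygen-sensing prolyl hydroxylase gene (0.42 ± 0.09, adjusted p = 0.0843). Ero1a, an oxidase of protein folding, had 11.64, 11.65 and 11.89 in 1D11_radiation tumors, against 10.72, 10.77 and 10.74 in 1D11 tumors (0.99 ± 0.22, adjusted p = 0.0861, and 0.0218 with the 6 arrays alone). Adm and Vegfa, singled out after their values were seen, encode a vasodilator peptide and the main endothelial growth factor. Adm had 11.46, 11.17 and 11.70 in 1D11_radiation tumors, against 10.48, 10.03 and 9.91 in 1D11 tumors (1.30 ± 0.32, adjusted p = 0.103). Vegfa had 9.08, 9.28 and 9.29 in 1D11_radiation tumors, against 8.41, 8.14 and 8.32 in 1D11 tumors (0.93 ± 0.23, adjusted p = 0.105, and 0.0245 with the 6 arrays alone). The exception to the direction was Pfkfb4, an enzyme that tunes glycolysis, at -0.26.

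The hypoxia scores were 0.19, 0.14 and 0.23 in 1D11_radiation tumors, against -0.31, -0.27 and -0.23 in 1D11 tumors. Each group was tight, and the lowest 1D11_radiation tumor lay above the highest 1D11 tumor. In the other tumors the scores were -0.35, 0.14 and 0.05 (control) and 0.27, 0.13 and 0.02 (radiation). The 1D11_radiation tumors thus lay within the range of the control and radiation tumors. The 1D11 tumors lay below all of those but the lowest control tumor. The list median stayed between 0.32 and 0.43 under the 27 alternatives.

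Promoter sequences of the 3 members with the smallest p are shown because the list is defined by factors that read a short motif. They are RefSeq windows of build GRCm38.p6, 250 bases before to 50 after the gene's start, written 5′ to 3′ on the gene's strand. Capitals mark ACGTG or GCGTG on either strand (on the other strand CACGT or CACGC), and the motifs may overlap. The windows are P4ha2 (chr11:54100674-54100973, plus strand), with 4 matches, Pgk1 (chrX:106186850-106187149, plus strand), with 2, and Egln1 (chr8:124949205-124949504, minus strand), with 2.
P4ha2: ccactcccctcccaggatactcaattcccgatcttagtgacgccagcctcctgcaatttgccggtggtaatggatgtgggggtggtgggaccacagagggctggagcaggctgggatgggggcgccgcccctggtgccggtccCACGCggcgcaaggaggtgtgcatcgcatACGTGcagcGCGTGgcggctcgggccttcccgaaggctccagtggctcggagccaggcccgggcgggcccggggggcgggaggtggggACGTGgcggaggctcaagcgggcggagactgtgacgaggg
Pgk1: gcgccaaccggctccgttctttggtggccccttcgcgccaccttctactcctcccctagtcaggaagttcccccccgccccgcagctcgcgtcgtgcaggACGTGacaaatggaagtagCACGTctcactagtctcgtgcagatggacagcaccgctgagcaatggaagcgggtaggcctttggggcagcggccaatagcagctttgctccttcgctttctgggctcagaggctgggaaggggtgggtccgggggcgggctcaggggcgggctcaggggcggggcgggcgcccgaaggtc
Egln1: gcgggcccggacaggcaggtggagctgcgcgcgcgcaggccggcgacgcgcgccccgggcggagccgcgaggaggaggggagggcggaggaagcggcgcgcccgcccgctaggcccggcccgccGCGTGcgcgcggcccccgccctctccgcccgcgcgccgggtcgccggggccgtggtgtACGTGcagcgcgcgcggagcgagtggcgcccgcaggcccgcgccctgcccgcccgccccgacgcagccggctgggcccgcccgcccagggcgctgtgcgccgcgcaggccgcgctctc
Of 33 members, 29 had a window, and 24 of these (82.8%) held at least 1 match. Of 27025 promoter windows, 1 per gene, 11836 (43.8%) did. Those 27025 include genes not tested here and were not matched to the list in base composition, so the shares are not a test. A match describes the letters and is not a measured binding site.

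Interferon response genes had 33 of 34 members lower in irradiated tumors and a median log2 change of -0.54. These genes are switched on by type I and II interferons through STAT and IRF factors, and encode antiviral effectors, sensors and T cell chemokines. None was called in limma over 12 arrays. In 28 members the irradiated tumors all lay below the unirradiated ones (16.5% of all genes), and 24 were lower at an unadjusted p under 0.05 (10.3% of all genes). With the 6 arrays alone 3 were called lower (0.534% of all genes). The members were chosen with earlier results of these data known, so these counts are no separate result.

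Oasl2, an oligoadenylate synthetase-like gene, had 6.62, 6.42 and 6.66 in 1D11_radiation tumors, against 7.40, 7.61 and 7.23 in 1D11 tumors (-0.85 ± 0.18, adjusted p = 0.0766, limma). Ifit1, which blocks translation of viral RNA, had 7.59, 7.61 and 7.32 in 1D11_radiation tumors, against 8.48, 8.99 and 8.53 in 1D11 tumors (-1.16 ± 0.29, adjusted p = 0.103). In both genes the groups were well apart, and both passed with the 6 arrays alone (adjusted p = 0.0348 and 0.0347). Cmpk2, a mitochondrial nucleotide kinase gene, was at -0.81 ± 0.19 and Parp14, an ADP-ribosyltransferase gene, at -0.59 ± 0.15. Cxcl9, a T cell chemokine gene, was the member that was not lower, at 0.13 with overlapping groups. The interferon scores were -0.23, -0.14 and -0.25 in 1D11_radiation tumors, against 0.20, 0.52 and 0.30 in 1D11 tumors. In the 6 tumors given 13C4 they were -0.55 to 0.16. The unirradiated 1D11 tumors thus stood above all the others, and the 1D11_radiation tumors lay within the range of the tumors given 13C4. The list median stayed between -0.62 and -0.44 under the 27 alternatives, and was -0.62 with the keratinocyte score as a covariate.

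The promoters of Oasl2, Cmpk2 and Ifit1, again those with the smallest p, are given with capitals on GAAANNGAA, the repeat read by IRF factors, on either strand (TTCNNTTTC on the other), overlapping matches included. The windows are Oasl2 (chr5:114896684-114896983, plus strand), with 0 matches, Cmpk2 (chr12:26468965-26469264, plus strand), with 0, and Ifit1 (chr19:34640639-34640938, plus strand), with 3.
Oasl2: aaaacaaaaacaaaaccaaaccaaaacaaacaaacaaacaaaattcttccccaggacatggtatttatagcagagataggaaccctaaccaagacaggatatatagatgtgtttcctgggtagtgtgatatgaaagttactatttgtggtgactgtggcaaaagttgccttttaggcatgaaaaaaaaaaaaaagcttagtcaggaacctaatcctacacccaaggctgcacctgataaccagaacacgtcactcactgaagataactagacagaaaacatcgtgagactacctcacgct
Cmpk2: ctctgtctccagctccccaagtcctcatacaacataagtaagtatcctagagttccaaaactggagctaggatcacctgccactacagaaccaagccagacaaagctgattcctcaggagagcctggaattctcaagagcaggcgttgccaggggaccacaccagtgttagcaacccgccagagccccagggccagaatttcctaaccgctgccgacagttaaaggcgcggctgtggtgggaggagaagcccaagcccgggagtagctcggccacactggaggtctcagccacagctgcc
Ifit1: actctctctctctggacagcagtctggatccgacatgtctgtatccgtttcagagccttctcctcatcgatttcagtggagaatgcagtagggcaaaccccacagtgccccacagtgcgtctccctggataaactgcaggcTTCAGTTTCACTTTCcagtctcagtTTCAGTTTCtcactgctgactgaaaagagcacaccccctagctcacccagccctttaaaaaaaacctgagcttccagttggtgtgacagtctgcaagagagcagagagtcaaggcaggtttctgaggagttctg
Of 34 members, 25 had a window and 15 of these (60%) held a match, as did 2317 of the same 27025 windows (8.57%), genes not tested included. For Oasl2 and Cmpk2 these letters are not in this window, from which nothing follows about the factors.

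**Figure D3:**
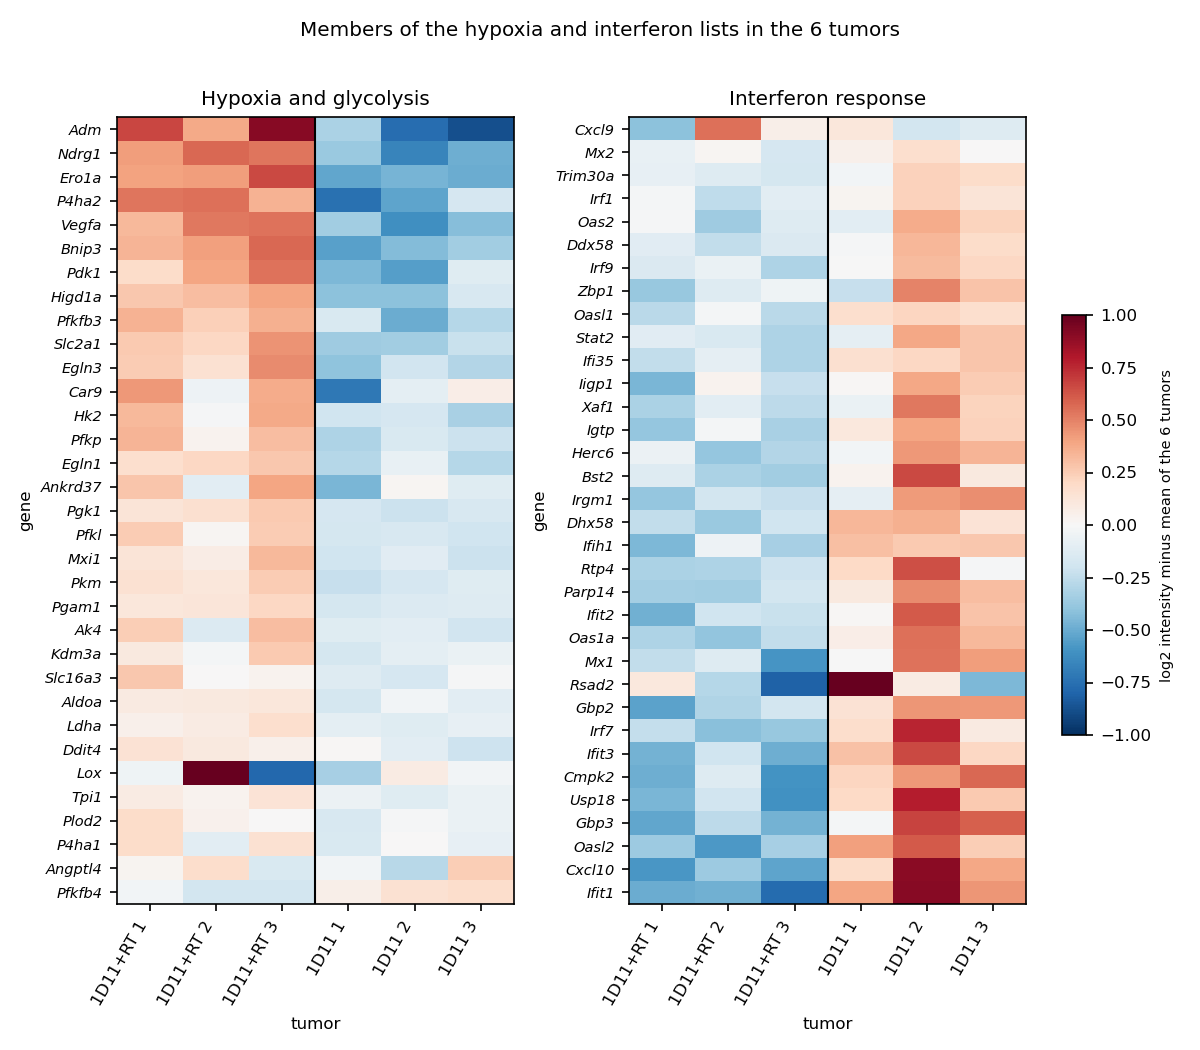
Log2 intensity minus the mean of the 6 tumors (color, limited to -1 and 1) for the tested members of the hypoxia and interferon lists (rows), in 3 1D11_radiation tumors (1D11+RT) and 3 1D11 tumors (columns). Of 33 hypoxia members, 26 are higher in all irradiated tumors (9.59% of all genes), and of 34 interferon members 28 are lower in all of them (16.5% of all genes). Both lists were chosen with earlier results of these data known.

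Genes of MHC class I and peptide loading had 11 of 13 members lower and a median change of -0.10. None was called in limma (3 lower at an unadjusted p under 0.05, 10.3% of all genes). After Psmb10 the smallest p belonged to the peptide-trimming protease gene Erap1 (-0.44 ± 0.10, adjusted p = 0.0888), the loading chaperone gene Tapbp (-0.53 ± 0.15, adjusted p = 0.133) and the transporter gene Tap2 (-0.16 ± 0.09). The class I chains H2-K1 and H2-D1 and their partner B2m, given outside the naming rule, were at -0.04, -0.03 and 0.02. MHC class II genes, which mark antigen-presenting cells, were lower in 7 of 7 tested, with none called and none at an unadjusted p under 0.05, the lowest at -0.11, and their median of -0.08 changed sign under 3 of 27 alternatives. H2-Aa had 10.22, 10.94 and 10.34 in 1D11_radiation tumors, against 10.13, 10.67 and 10.99 in 1D11 tumors, with the groups interleaved. Cd74, H2-Ab1 and H2-DMa were at -0.09 ± 0.27, -0.08 ± 0.29 and -0.11 ± 0.18.

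Inflammatory cytokine genes had 19 of 21 members higher and a median change of 0.67. None was called in limma (6 higher at an unadjusted p under 0.05, 5.21% of all genes). The neutrophil chemokine gene Cxcl3 had 10.77, 10.92 and 10.33 in 1D11_radiation tumors, against 10.35, 7.98 and 7.35 in 1D11 tumors (2.11 ± 0.72, adjusted p = 0.194). Cxcl2, with the same function, had 11.21, 11.30 and 11.03 in 1D11_radiation tumors, against 11.13, 8.56 and 8.49 in 1D11 tumors (1.78 ± 0.70, adjusted p = 0.249). In both genes 1D11 replicate 1 stood with the irradiated tumors, so the groups overlapped. Ccl3, a macrophage chemokine gene, was at 1.11 ± 0.31 with no overlap. Cytokine scores were 0.63, 0.27 and 0.44 in 1D11_radiation tumors, against 0.53, -0.65 and -0.56 in 1D11 tumors. The median was 0.93 without 1D11 replicate 1 and 0.34 without 1D11 replicate 2.

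Neutrophil genes were also high in 1D11 replicate 1, and 10 of 12 were higher in irradiated tumors, at a median of 0.35. There was no call in limma and no gene whose groups stood apart (2 higher at an unadjusted p under 0.05, 5.21% of all genes). S100a9, an abundant neutrophil protein gene, had 11.29, 10.99 and 10.91 in 1D11_radiation tumors, against 11.48, 9.19 and 9.52 in 1D11 tumors (1.00 ± 0.51, adjusted p = 0.378). The receptor genes Cxcr2 (0.55 ± 0.18) and Csf3r (0.30 ± 0.14) and the iron-binding lipocalin gene Lcn2 (0.81 ± 0.35) also overlapped. The neutrophil median was 0.61 without 1D11 replicate 1 and 0.22 without 1D11 replicate 2.

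Macrophage and monocyte genes had 18 of 23 members lower (median -0.23, none called in limma). At an unadjusted p under 0.05, 5 were lower (10.3% of all genes) and 1 higher (5.21% of all genes). The fractalkine receptor gene Cx3cr1 had 6.46, 6.54 and 6.36 in 1D11_radiation tumors, against 6.97, 7.15 and 7.13 in 1D11 tumors (-0.63 ± 0.16, adjusted p = 0.117, and 0.0320 with the 6 arrays alone). The monocyte recruitment receptor gene Ccr2 was at -0.67 ± 0.20, with no overlap, and the glycoprotein gene Gpnmb was higher at 0.78 ± 0.22. The median was -0.42 without 1D11_radiation replicate 2 and -0.10 without 1D11_radiation replicate 1. Cytotoxic lymphocyte genes had 7 of 8 members higher and a median change of 0.32, with none called (3 higher at an unadjusted p under 0.05, 5.21% of all genes). The granule protease gene Gzmb had 7.26, 8.20 and 7.28 in 1D11_radiation tumors, against 6.75, 7.04 and 6.59 in 1D11 tumors (0.79 ± 0.22, adjusted p = 0.136), and Prf1 (0.49 ± 0.20), Gzma (0.58 ± 0.26) and Nkg7 (0.34 ± 0.23) followed. 1D11_radiation replicate 2 was the highest tumor for all 4, and without it the list median was 0.07. T cell genes had a median of 0.03 over 8 members and dendritic cell genes one of -0.13 over 13, with none called.

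**Figure D4:**
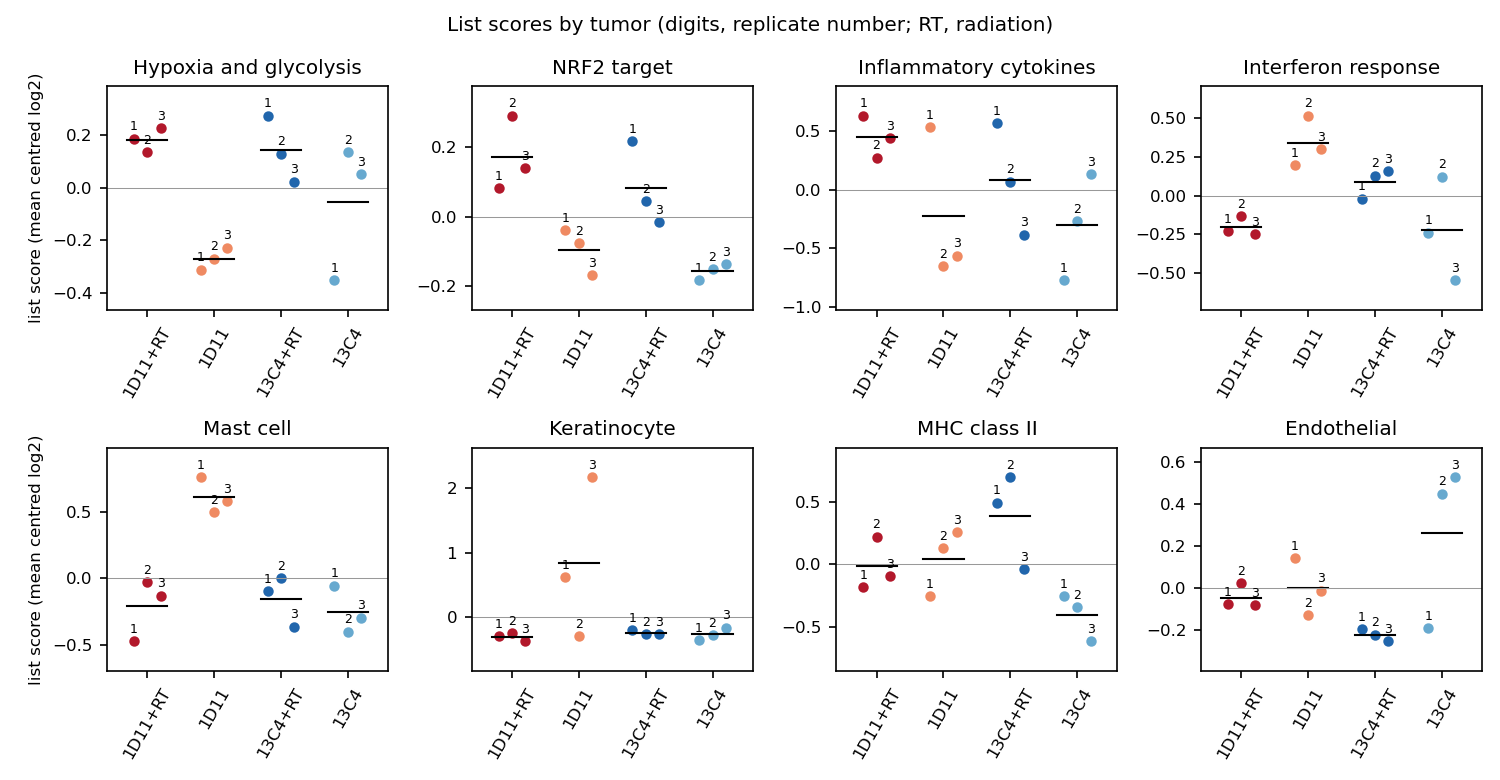
Scores of 8 gene lists (average over members of log2 values centred gene by gene; vertical axis) in 1D11_radiation (1D11+RT), 1D11, radiation (13C4+RT) and control (13C4) tumors; digits are replicate numbers and bars group means. Hypoxia scores are 0.14 to 0.23 in 1D11_radiation tumors and -0.31 to -0.23 in 1D11 tumors, mast cell scores are highest in the 1D11 tumors, and the keratinocyte score reaches 2.17 in 1D11 replicate 3.

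Genes of the TGF-beta pathway itself went both ways, with changes of -0.64 to 0.42. Of 23 ligand, receptor and SMAD genes, 12 were higher and 11 lower, at a median of 0.01 with none called in limma. At an unadjusted p under 0.05, 1 was higher (5.21% of all genes) and 2 lower (10.3% of all genes). Among the ligands, Tgfb1 was at 0.01 ± 0.11 and Tgfb2 at -0.19 ± 0.22. Tgfb3 had 8.26, 8.01 and 8.18 in 1D11_radiation tumors, against 8.51, 8.84 and 8.87 in 1D11 tumors, which did not overlap (-0.59 ± 0.19, adjusted p = 0.183). Itgb8, an integrin chain that activates latent ligand, was at -0.64 ± 0.22, and Ltbp4, a latent ligand binder, at -0.31 ± 0.14. The receptor genes Tgfbr1 and Tgfbr2 were at 0.09 ± 0.12 and -0.01 ± 0.10, the signal transducer gene Smad3 at 0.22 ± 0.09 and the induced inhibitor gene Smad7 at 0.13 ± 0.10. Tgfb1, Tgfbr1 and Tgfbr2 each changed sign under at least 1 alternative.

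Target genes of TGF-beta did not move together: 14 of 26 were higher and 12 lower, at a median of 0.05, with none called in limma. At an unadjusted p under 0.05, 4 were higher (5.21% of all genes) and 3 lower (10.3% of all genes). Id3, a SMAD-regulated inhibitor of differentiation factors, had 9.54, 9.03 and 9.25 in 1D11_radiation tumors, against 10.18, 10.21 and 10.05 in 1D11 tumors (-0.87 ± 0.15, adjusted p = 0.0568). Pmepa1, a feedback inhibitor, had 6.33, 7.37 and 6.27 in 1D11_radiation tumors, against 8.01, 7.88 and 7.87 in 1D11 tumors (-1.26 ± 0.28, adjusted p = 0.0843). Ccn2, the connective tissue growth factor gene, had 9.02, 9.18 and 8.73 in 1D11_radiation tumors, against 8.34, 7.93 and 8.18 in 1D11 tumors (0.83 ± 0.24, adjusted p = 0.142). The groups stood apart for each of these genes, in opposite directions, and the matrix protein gene Tgfbi was at -0.54 ± 0.18.

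Of the genes that answer DNA damage, targets of p53 had 21 of 28 members higher and a median change of 0.10, with none called in limma. At an unadjusted p under 0.05, 4 were higher (5.21% of all genes) and 3 lower (10.3% of all genes). In 14 members the irradiated tumors all lay above the unirradiated ones (9.59% of all genes) and in 3 below (16.5% of all genes). Cdkn1a, which encodes the cell cycle inhibitor p21, had 12.52, 12.51 and 12.51 in 1D11_radiation tumors, against a mean of 12.05 ± 0.06 in 1D11 tumors (SD, n = 3), a change of 0.46 ± 0.27. These 6 tumors were tight within groups, and the adjusted p of 0.449 became 0.0326 with the 6 arrays alone and 0.0164 without control replicate 1, where Cdkn1a was at 10.88. The death gene Pmaip1 had 8.87, 9.63 and 9.25 in 1D11_radiation tumors, against 8.12, 7.63 and 8.17 in 1D11 tumors (1.28 ± 0.35, adjusted p = 0.134). Mdm2, the p53-degrading ligase gene, was at 0.39 ± 0.12 (adjusted p = 0.165, and 0.0339 without control replicate 1), the p53-induced death domain gene Pidd1 at 0.23 ± 0.08 and the stress sensor gene Sesn1 at -0.47 ± 0.11.

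Proliferation and repair genes showed small differences. Mitosis genes had a median of -0.02 over 31 members, DNA replication genes one of -0.10 over 30, and DNA damage and repair genes one of -0.06 over 27, with no member called in limma. At an unadjusted p under 0.05 there were 0 mitosis genes, 2 replication genes (both lower), and 2 higher and 2 lower repair genes. Over all genes the shares were 5.21% higher and 10.3% lower. Respiratory chain, ribosomal protein and epithelial-mesenchymal transition genes had medians of -0.04, -0.03 and 0.02, with none called.

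Antioxidant genes under the factor NRF2 had 16 of 17 members higher and a median change of 0.22, with Abcc1 called (0.0314% of all genes were called higher) and 8 higher at an unadjusted p under 0.05 in limma (5.21% of all genes). The heme-degrading enzyme gene Hmox1 had 10.26, 10.63 and 10.38 in 1D11_radiation tumors, against 9.63, 9.75 and 9.36 in 1D11 tumors (0.84 ± 0.23, adjusted p = 0.134, and 0.0433 with the 6 arrays alone). The groups stood apart for Hmox1, as they did for the glutathione synthesis gene Gclc (0.38 ± 0.10) and the cystine transporter gene Slc7a11 (0.81 ± 0.26). Genes of the integrated stress and unfolded protein responses had 14 of 24 members higher (median 0.12, none called). At an unadjusted p under 0.05, 4 were higher (5.21% of all genes) and 1 lower (10.3% of all genes). Vldlr, a lipoprotein receptor gene, had 7.39, 8.39 and 7.47 in 1D11_radiation tumors, against 5.85, 5.88 and 6.54 in 1D11 tumors (1.66 ± 0.33, adjusted p = 0.0630), while the stress factor gene Ddit3 was at 0.40 ± 0.10 and Herpud1 at -0.28 ± 0.11.

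Guidance cues and their receptors steer axons, vessels and migrating cells. This list was written with the calls of Srgap3, Ntn1 and Trio known, so its 3 calls of 24 members are no separate result. Of the 24, 9 were higher and 15 lower (median -0.02), 2 and 8 at an unadjusted p under 0.05 in limma (5.21% and 10.3% of all genes). Srgap2, a relative of Srgap3, had 9.53, 9.50 and 9.51 in 1D11_radiation tumors, against 9.78, 9.78 and 9.77 in 1D11 tumors (-0.26 ± 0.06, adjusted p = 0.0950). Srgap2 and Srgap3 thus lay on opposite sides of 0.

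The radiation effect under 13C4, measured in the other 6 tumors (radiation minus control), called 304 genes (2.39% of 12735), 188 higher and 116 lower (1.48% and 0.911%). The pair of effects share no sample, but both were fitted with the same estimate of spread for each gene. A gene of low spread is thus favored for a call in both, so counts of genes passing in both are not independent. Of the 10 genes called under 1D11, 7 were also called under 13C4. Aplnr was at -1.66 ± 0.12 under 1D11 and -0.87 ± 0.12 under 13C4, and Osr2 at -1.72 ± 0.20 under each. Adam8 was at 0.67 ± 0.09 and 0.72 ± 0.09, Abcc1 at 0.59 ± 0.09 and 0.54 ± 0.09, and Srgap3 at 0.90 ± 0.11 and 0.63 ± 0.11, under 1D11 and 13C4 in that order. Ntn1 (-0.52 ± 0.07 and -0.29 ± 0.07), Trio (-0.56 ± 0.08 and -0.32 ± 0.08) and Mcpt4 (-1.59 ± 0.24 and 0.37 ± 0.24) were not called under 13C4. Of the 304 genes, 270 (88.8%) had the same sign under 1D11, and 164 of these had an unadjusted p under 0.05 there (15.5% of all genes did, in either direction). Over all 12735 genes 8046 (63.2%) had the same sign, and the changes correlated at Pearson r = 0.389 and Spearman rho = 0.394 across genes, which are not independent and share arrays within each effect.

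The difference between the radiation effects, the interaction, called no gene in limma (952 genes, 7.48%, at an unadjusted p under 0.05). The count was 122 with array weights, 21 without control replicate 1 and 20 without both arrays with the most muscle signal. Without 1D11 replicate 2, 1D11_radiation replicate 3 or radiation replicate 3 it was 2, 1 and 2. Mcpt4 was among the 5 smallest p in the negative direction, at -1.96 ± 0.34 (adjusted p = 0.265). Stat4, the transcription factor gene of interleukin-12 signaling, had an interaction of -0.75 ± 0.12, with no call under 1D11 (5.98, 6.13 and 5.99 in 1D11_radiation tumors, against 5.93, 6.09 and 6.09 in 1D11 tumors) and 0.75 ± 0.08 under 13C4. Frzb, a secreted Wnt antagonist gene, had an interaction of 1.21 ± 0.22, with 0.13 ± 0.15 under 1D11 and -1.08 ± 0.15 under 13C4, and the ubiquitin ligase gene Rnf144a 0.76 ± 0.14.

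List medians under each antibody are given side by side, with no test over lists. The interferon median was -0.54 under 1D11 and 0.28 under 13C4, and 24 of 34 members had an unadjusted interaction p under 0.05 (7.48% of all genes did). MHC class II medians were -0.08 under 1D11 and 1.02 under 13C4, with 5 of 7 such members, and endothelial medians -0.12 and -0.50, with 10 of 25. Macrophage medians were -0.23 and 0.32, with 10 of 23 such members. Hypoxia medians were 0.36 under 1D11 and 0.18 under 13C4, with 4 of 33 members, and NRF2 medians were 0.22 and 0.24, with 0 of 17. For p53 targets the medians were 0.10 under 1D11 and 0.41 under 13C4, with 4 of 28. Among neighboring tissues and mast cells, skeletal muscle medians were -0.73 under 1D11 and 1.10 under 13C4, keratinocyte medians -1.11 and 0.01, adipocyte medians -0.33 and 0.12, with 4 of 11 such members, and mast cell medians -0.53 and 0.20, with 5 of 9. The 13C4 values include control replicate 1 and radiation replicate 3, the tumors with the most muscle signal; their part in these differences was not tested.

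**Figure D5:**
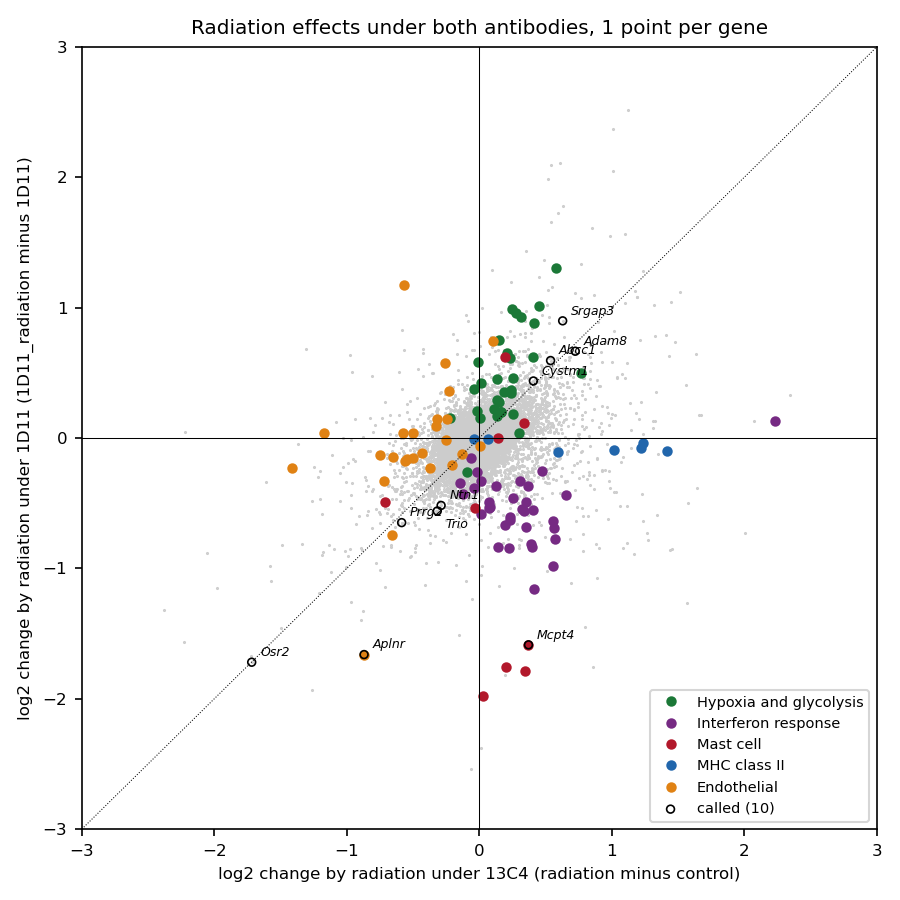
Log2 change by radiation under 1D11 (1D11_radiation minus 1D11, vertical axis) against that under 13C4 (radiation minus control, horizontal axis); each point is a gene, 5 lists are colored, open circles mark the 10 genes called under 1D11 and the dotted line marks equal changes. Interferon genes lie below 0 on the vertical axis (median -0.54) and mostly above 0 on the horizontal one (median 0.28), while Osr2 lies on the line at -1.72.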

How the data were processed

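Whole-tumor RNA of 12 tumors was measured on Affymetrix arrays with 45101 probe sets. The authors deposited 1 table of linear intensity values, already normalized between arrays (values of 7.40 to 30798); the software used is not given in the sources used here. Intensities were converted to log2. Probe sets were named through the platform annotation: 34945 had 1 symbol, 932 several and 9160 none, and 64 were control probe sets. Each of 18193 genes took its probe set of highest mean, and the lowest 30% of genes by mean over all 12 arrays, under a log2 intensity of 5.37, were not tested, which left 12735. Groups came from the sample labels. A mean per group was fitted over all 12 arrays, which share 1 estimate of spread (8 residual degrees of freedom), with limma 3.58.1 (lmFit, eBayes) in R 4.3.3. P-values were adjusted over all genes tested by Benjamini-Hochberg, and a gene was called under 0.05. The steps were tested on simulated data. An exact permutation test of 3 against 3 tumors cannot give a p below 0.1 and was not used.

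Genes named are all those called, the next 10 in each direction by p, 5 in each direction by interaction p, 8 genes of TGF-beta signaling and DNA damage, and up to 4 per list by p; others are said to be outside the rule. Members and lists were chosen with earlier results of these data known. A list is described by its counts and median beside those of all genes. Promoter windows are RefSeq sequences (GRCm38.p6). In 27 alternatives, normalization, filter, probe set choice, spread model, covariates, arrays and single replicates were varied.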

Additional observations from a re-analysis of the deposited data

Results flagged for a closer look

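Of the genes named for the smallest interaction p, 5 in each direction, Hgf, Rhd, Plcxd1, Fcgr1, Cd83 and Slco3a1 had every 1D11_radiation tumor on one side of the 1D11 tumors and every radiation tumor on the opposite side of the control tumors. Choosing genes by interaction p favors such opposite changes, so their number is no result. None of these differences passed in limma (adjusted p = 0.265 to 0.318).

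Hgf, the hepatocyte growth factor gene, had 5.73, 5.64 and 5.65 in 1D11_radiation tumors, against 5.51, 5.55 and 5.62 in 1D11 tumors, and 5.31, 5.32 and 5.39 in radiation tumors, against 5.68, 5.73 and 5.71 in control tumors. Its interaction was 0.48 ± 0.08. Dimmer Hgf probe sets, at means of 4.51 and 4.92, changed by -0.11 and -0.17 under 1D11. The direction for Hgf under 1D11 thus depended on the probe set. The interactions of the blood group antigen gene Rhd and of Plcxd1 were 0.44 ± 0.09 and 0.67 ± 0.15. With the probe sets used, all 3 were higher with radiation under 1D11 and lower with it under 13C4.

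Fcgr1, an IgG receptor gene of macrophages, had 8.97, 9.05 and 9.02 in 1D11_radiation tumors, against 9.22, 9.63 and 9.27 in 1D11 tumors, and 9.20, 9.54 and 9.32 in radiation tumors, against 8.55, 8.71 and 8.29 in control tumors. Its interaction was -1.20 ± 0.19. Cd83, a surface gene of mature dendritic cells, had 6.93, 7.22 and 7.02 in 1D11_radiation tumors, against 7.35, 7.48 and 7.57 in 1D11 tumors, and 7.97, 7.79 and 7.17 in radiation tumors, against 6.56, 6.61 and 6.65 in control tumors. Its interaction was -1.45 ± 0.24, and that of the anion transporter gene Slco3a1 was -0.53 ± 0.10. These 3 genes were lower with radiation under 1D11 and higher with it under 13C4.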

How the results depend on the processing

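Against the 10 genes called between 1D11_radiation and 1D11 tumors, limma called 1491 with array weights, 419 without both arrays with the most muscle signal, 119 with the 6 arrays alone, 57 with the lowest 50% not tested, 54 with an intensity trend, 49 with 32 added to intensities (26.5% of calls higher, against 40% of the 10), 35 with the mean of probe sets, 22 with a muscle score covariate and 2 with a keratinocyte score covariate. Leaving out single tumors gave 1 (without 1D11_radiation replicate 3) to 227 (without control replicate 1). Of the 10 calls, Cystm1 and Trio were lost with the mean of probe sets, Abcc1, Cystm1 and Trio with the probe set of largest variance, Mcpt4 and Trio with quantile normalization, and Cystm1, Mcpt4 and Trio with no filter; Osr2 and Mcpt4 were too dim to be tested with the lowest 50% left out. For the 304 genes between radiation and control tumors, the counts were 890 with array weights, 585 with the muscle covariate, 569 without both muscle arrays, 193 with the mean of probe sets and 190 with the keratinocyte covariate, and 20 (without radiation replicate 2) to 436 (without control replicate 1) without single tumors. For the interaction, with 0 calls, they were 122 with array weights, 20 without both muscle arrays and 0 to 21 without single tumors. The cause was not tested.

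Deviations of same-numbered tumors from their group means correlated at r = -0.31 to 0.27 (3 of 18 pairs over 0.1). Tumors of different groups and numbers correlated at r = -0.29 to 0.37. With 3 tumors per group these values cannot decide whether the numbers mark pairs or a shared batch. The main fit did not use the numbers. The replicate block gave 1 call for 1D11_radiation against 1D11, 206 for radiation against control and 0 for the interaction.

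Of 114 named genes, 104 kept their sign under every alternative. Signs turned for Trio (0.33 with the probe set of largest variance), Stat4 (0.0016 with median centring, 0.0070 with the keratinocyte covariate, 0.0366 with the muscle covariate), Tgfb1 (-0.0399, muscle), Tgfbr2 (0.0567, keratinocyte; 0.0393, mean of probe sets; 0.0221, muscle), Cd74 (0.0785, keratinocyte), H2-Aa (0.0934, keratinocyte; 0.149, largest variance), H2-Ab1 (0.11, keratinocyte) and Krt5 (0.16, keratinocyte). Without single tumors, log2 changes ran from -0.0520 to 0.0265 for Stat4, -0.0625 to 0.0542 for Tgfb1, -0.0128 to 0.167 for Tgfbr1, -0.138 to 0.0594 for Tgfbr2, -0.26 to 0.0069 for H2-DMa, -0.282 to 0.0741 for Cd74, -0.331 to 0.0990 for H2-Aa and -0.27 to 0.10 for H2-Ab1. The cause was not tested.

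Of 35 lists, 21 kept the sign of their median under every alternative. Dim genes, 3 tumors per group and a spread shared with the tumors given 13C4 limit what could be called.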
